A study of Mus musculus with 13 samples.

Results

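The genes described here are the nuclear genes for subunits of the 5 complexes of oxidative phosphorylation. They were chosen from the count table by symbol: names starting with Nduf and then a, b, c, s or v, the 4 Sdh subunit genes, and names starting with Uqcr, with Cox and a digit from 4 to 8, or with Atp5. Of 115 matching names 17 were left out, namely 15 pseudogene names, Cox8b and Cox7a1, which left 98 of the 56953 genes of the table. They comprised 41 genes of complex I, 8 complex I assembly factors (the Ndufaf genes, which build the complex and are not part of it), 4 genes of complex II, 8 of complex III, 19 of complex IV and 18 of complex V. Ndufa4 and its relative Ndufa4l2 were counted with complex IV, since NDUFA4 is a subunit of cytochrome c oxidase in spite of its name. Cyc1, the cytochrome c1 of complex III, has a symbol outside the rule and was not a member.

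Whole aortas came from ApoE-/- mice, which lack apolipoprotein E and develop atherosclerosis, and every group ate a Western diet for 16 weeks from 6 weeks of age. The groups were the diet alone (WD, 5 libraries), the diet with auranofin at 3 mg/kg/day (3 libraries), with atorvastatin at 10 mg/kg/day (3 libraries) and with both drugs at those doses (combination, 2 libraries). Auranofin, a gold-containing antirheumatic drug, blocks thioredoxin reductase, and atorvastatin blocks HMG-CoA reductase, the enzyme that statins target. The labels name no batch and do not say that each library is a separate mouse, so p-values measure only the spread between these samples, which may be technical.

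Complexes I and II take electrons from NADH and succinate, complex III passes them to cytochrome c, complex IV hands them to oxygen, and complex V, the ATP synthase, uses the proton gradient that results. Complexes I, III, IV and V each join subunits of the mitochondrial genome with nuclear ones, while complex II is wholly nuclear and is also an enzyme of the citric acid cycle. Heart muscle, next to the aortic root, and the brown fat around the mouse aorta are rich in mitochondria.

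The 13 libraries held 19703683 to 26079566 counts. All 8 contractile smooth muscle markers had counts in every library, with a summed level of 6073 to 27637 CPM (read counts scaled to a common library total). The mitochondrial genome took 9.36%, 26.9%, 19.4%, 13.5% and 24.2% of the counts in WD 1 to WD 5, 24.0%, 38.8% and 16.0% in auranofin 1 to 3, 12.2%, 14.9% and 21.1% in atorvastatin 1 to 3, and 11.3% and 19.1% in combination 1 and 2. The 12 brown adipocyte markers summed to 268 to 1124 CPM in WD, 655 to 3245 CPM with auranofin, 584 to 885 CPM with atorvastatin, and 403 and 2010 CPM with the combination; of them Cpt1b was at 0 in at least 1 library. The 15 heart and striated muscle markers summed to 26.6 to 694 CPM in WD, 19.1 to 122 CPM with auranofin, 15.3 to 36.1 CPM with atorvastatin, and 38.1 and 1705 CPM with the combination, and Myh1, Myh4, Myl2 and Myl7 were at 0 in at least 1 library. The part of these tissues in the results below was not tested except where a value is given. In bulk tissue, fewer cells of a type and less RNA per cell cannot be told apart.

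Of the 98 members, 91 passed the filter on low counts. The other 7 were Cox6c2, Cox7b2, Cox8c, Ndufa11b, Ndufb11b, Ndufs6b and a second entry named Atp5o without any count. Members together took 0.570% to 1.04% of the counts of a library. Several members have pseudogenes close to their own sequence that drew counts too: over all libraries Ndufs5-ps held 5935 counts against 15257 for Ndufs5, Atp5l-ps1 3438 against 19861 for Atp5l, Ndufab1-ps 2081 against 11003 for Ndufab1, and Ndufa12-ps 1901 against 9572 for Ndufa12. The levels of these 4 members are uncertain to that extent.

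Per length of transcript, the common isoforms stood far above the tissue-specific ones in complex IV, the terminal oxidase. As means over the 13 libraries, Cox4i1, the general isoform of subunit 4, had 235 CPM per kb and Cox4i2, its isoform of lung and smooth muscle, 5.03. Cox6a1 had 343 CPM per kb and Cox6a2, the heart and skeletal muscle isoform, 8.38. Cox6b1 had 284 CPM per kb against 4.98 for Cox6b2, the testis isoform, and Ndufa4 had 233 against 9.0 for Ndufa4l2, which hypoxia induces. In complex V, the genes for subunit c of the membrane ring differed in the same measure, with 147 CPM per kb for Atp5g2, 135 for Atp5g3 and 13.1 for Atp5g1. The last value rests on an annotated Atp5g1 transcript of 4715 nt. The class medians could not rank the complexes, since each class spanned a wide range, from 34.7 to 112 CPM per kb in complex II and from 13.1 to 348 CPM per kb in complex V, where Atp5b, the catalytic beta subunit, was highest.

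Most members moved as a block from library to library, whatever the group. The Pearson correlation of a member with the mean of the other members, over 13 libraries on the log2 CPM scale, had a median of 0.96, and 63 of the 91 were over 0.9. These correlations describe libraries that share depth and scaling. Cox5b, a nuclear subunit of complex IV, was the most typical member with r = 0.99. Its levels in WD 1 to WD 5 were 116, 372, 159, 118 and 275 CPM, in auranofin 1 to 3 156, 305 and 135 CPM, in atorvastatin 1 to 3 91.4, 116 and 149.5 CPM, and in the combination 126 and 186 CPM. WD 2, auranofin 2 and WD 5 were thus high and atorvastatin 1 was low. Uqcr11, a small subunit of complex III, was also high in those libraries, with 201 CPM in WD 2, 154 CPM in WD 5 and 152 CPM in auranofin 2. It was low in atorvastatin 1, with 33.9 CPM. Cox7c, Ndufa3 and Atp5mpl, small subunits of complexes IV, I and V, followed at r = 0.99. The TMM scaling factors, which divide CPM levels, were lowest in auranofin 2 (0.629), WD 2 (0.639) and WD 5 (0.801). Other libraries had 0.999 to 1.23. As an unscaled share of counts, members took 0.799%, 0.983% and 0.9002% in that order, and 1.04% in combination 2. Of counts outside the mitochondrial genome these shares were 1.305%, 1.34%, 1.19% and 1.29%. Atorvastatin 1 was lowest in both. The part of the factors in the block, and in the slopes below, was not tested.

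**Figure D1:**
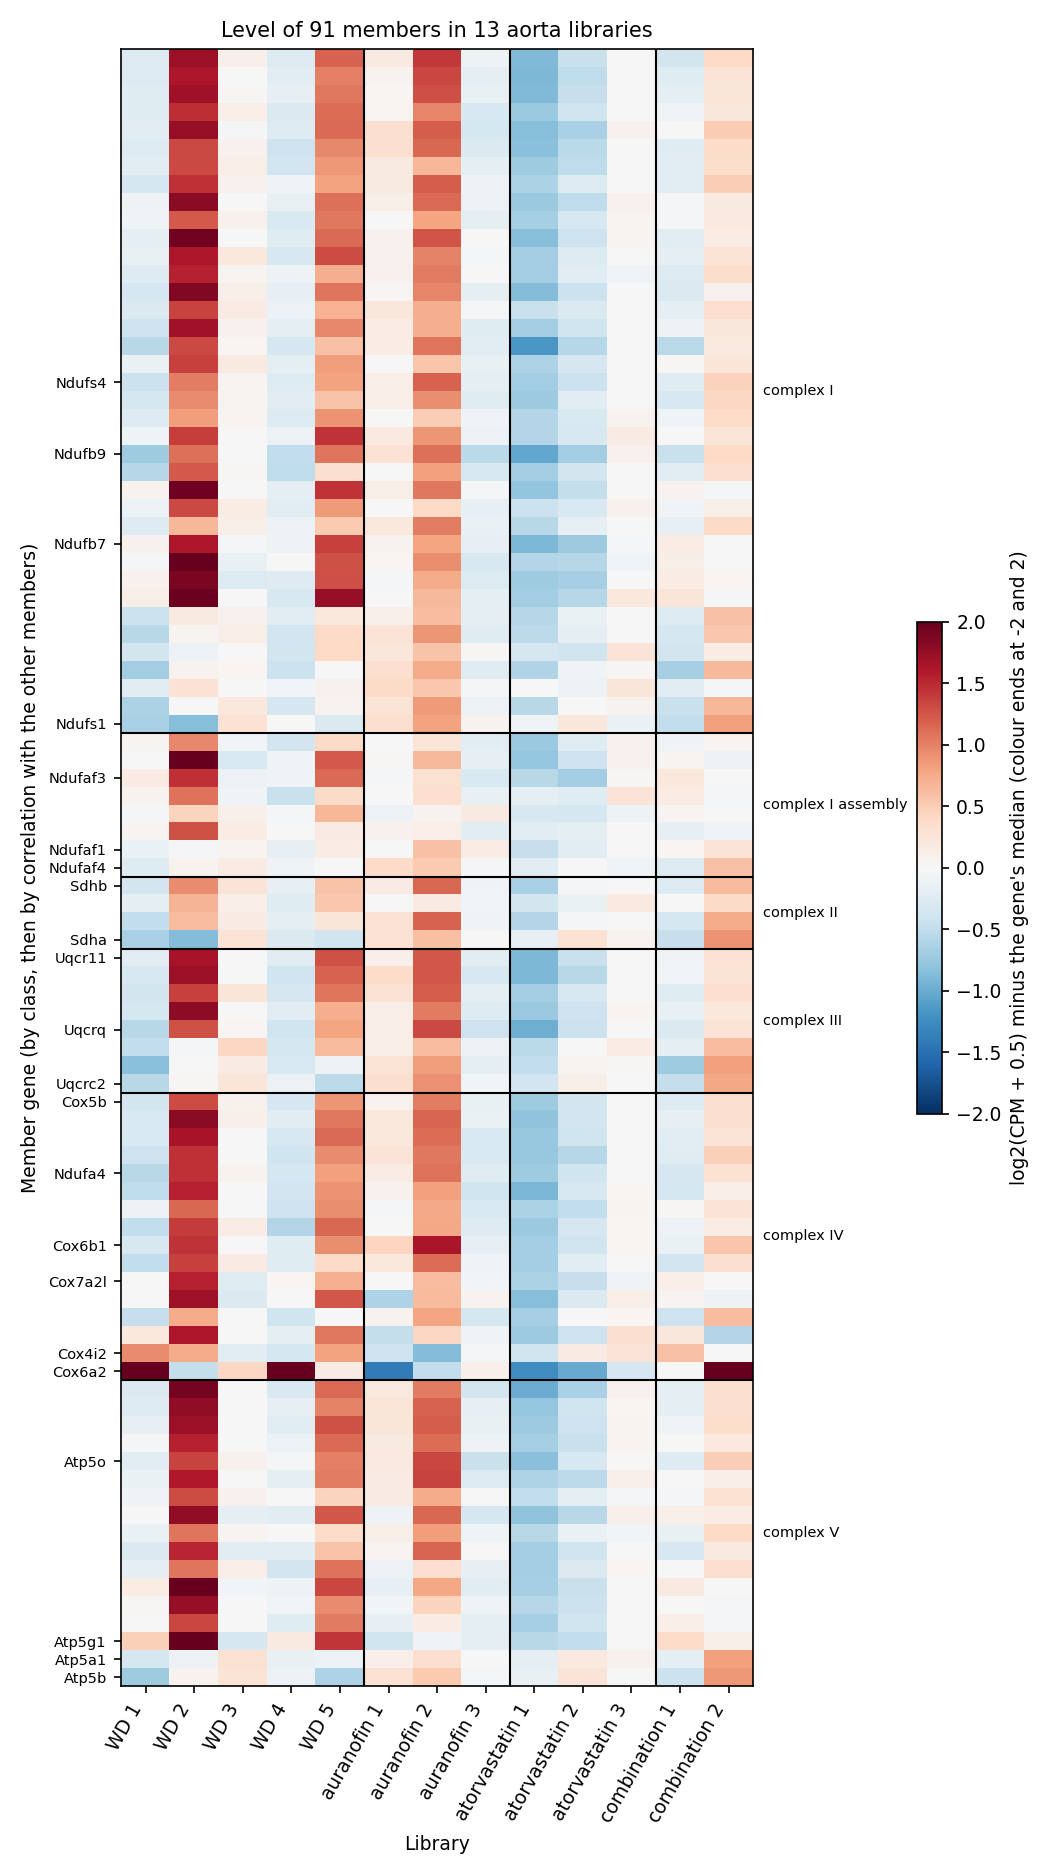
Each row is 1 of the 91 members tested, ordered by class and then by likeness to the other members, and each column a library; colour gives log2(CPM + 0.5) minus the median of the gene over the 13 libraries, with names beside a selection of members. Columns WD 2, WD 5 and auranofin 2 are red and atorvastatin 1 is blue for most rows, while Sdha, Ndufs1, Atp5b, Cox4i2 and Cox6a2 differ from that pattern.

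A few members did not follow the block, and 7 had a correlation under 0.5 with it. Of these, 5 encode large catalytic or core proteins: Sdha, the flavoprotein of complex II (r = -0.07), Ndufs1, the largest subunit of complex I (-0.04), Atp5b and Atp5a1, the beta and alpha subunits of ATP synthase (0.20 and 0.23), and Uqcrc2, core protein 2 of complex III (0.36). Sdha (ENSMUSG00000021577) had 159.9, 138, 305, 206 and 189.8 CPM in WD 1 to WD 5, 306, 383 and 251 CPM in the auranofin libraries, 224, 311 and 265 CPM in the atorvastatin libraries, and 183 and 468 CPM in the combination. It was lowest in WD 2, where Cox5b was highest, and highest in combination 2. Ndufs1 ran the same way, from 43.5 CPM in WD 2 to 139 CPM in auranofin 2 and 139.7 CPM in combination 2. The 12 brown adipocyte markers include Cox8b and Cox7a1, the complex IV genes left out of the members. The correlation of Sdha with the mean of these 12 markers was 0.96 and with that of 16 citric acid cycle genes 0.98, and both values were 0.96 for Ndufs1. Atp5b gave 0.81 and 0.89 in that order, Atp5a1 0.85 and 0.93, and Uqcrc2 0.83 and 0.90.

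The other members apart from the block were Cox6a2 and Cox4i2, isoforms of complex IV. Cox6b2, the testis isoform, and Ndufa4l2 had higher correlations with the other members, at 0.87 and 0.78. Cox6a2 (ENSMUSG00000030785) had 15.1, 0.601, 1.55, 17.1 and 1.22 CPM in WD 1 to WD 5, 0.0834, 0.593 and 1.15 CPM with auranofin, 0.151, 0.266 and 0.714 CPM with atorvastatin, and 1.04 and 34.6 CPM with the combination. WD 1, WD 4 and combination 2 stood above all the rest, and the same 3 libraries held the most Myh6, the heart myosin heavy chain, at 96.5, 162 and 625 CPM. The correlation of Cox6a2 with the mean of the heart and striated muscle markers was 0.97. Cox4i2 lay between 1.52 CPM in auranofin 2 and 6.55 CPM in WD 1, and ran against the brown adipocyte markers, with r = -0.72.

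Promoters of members on either side of this divide are shown for their letters alone. Uqcr11 and Ndufb4, a membrane-arm subunit of complex I, moved with the block (both r = 0.99), while Sdha and Atp5b did not. The sequences are the 250 bases before the transcription start in the RefSeq table of build GRCm38.p6, written 5′ to 3′ on the strand of the gene: Uqcr11 at chr10:80406822-80407071, minus strand; Ndufb4 at chr16:37654369-37654618, minus strand; Sdha at chr13:74350241-74350490, minus strand; and Atp5b at chr10:128083057-128083306, plus strand. Capitals mark matches on either strand to TGCGCA, the core of the NRF1 motif, CCGGAAG, the core of the GABPA motif, ATGGCGG, known for YY1, and AAGGTCA, known for the oestrogen-related receptors, all of them regulators of nuclear genes for mitochondria.
Uqcr11: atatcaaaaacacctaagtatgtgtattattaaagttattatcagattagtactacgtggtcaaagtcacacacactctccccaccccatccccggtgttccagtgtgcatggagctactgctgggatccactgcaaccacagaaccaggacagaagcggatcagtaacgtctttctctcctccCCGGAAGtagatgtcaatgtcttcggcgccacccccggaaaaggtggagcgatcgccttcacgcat
Ndufb4: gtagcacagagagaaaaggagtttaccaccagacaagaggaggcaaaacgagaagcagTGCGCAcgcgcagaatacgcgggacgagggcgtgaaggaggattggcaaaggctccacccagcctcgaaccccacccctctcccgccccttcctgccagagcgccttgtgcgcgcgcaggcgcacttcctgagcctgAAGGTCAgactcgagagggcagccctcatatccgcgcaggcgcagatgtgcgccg
Sdha: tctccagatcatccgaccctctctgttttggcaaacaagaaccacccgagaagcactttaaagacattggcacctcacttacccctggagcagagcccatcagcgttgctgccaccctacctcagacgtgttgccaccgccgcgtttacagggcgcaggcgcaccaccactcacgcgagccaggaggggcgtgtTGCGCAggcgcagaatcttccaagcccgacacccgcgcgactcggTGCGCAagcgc
Atp5b: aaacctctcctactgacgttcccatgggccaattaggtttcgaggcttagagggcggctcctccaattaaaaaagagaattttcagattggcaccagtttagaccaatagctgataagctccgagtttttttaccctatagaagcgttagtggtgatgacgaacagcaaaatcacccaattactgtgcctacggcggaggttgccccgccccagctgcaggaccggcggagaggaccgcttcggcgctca
Uqcr11 held 1 match, to the GABPA letters, Ndufb4 held 2, to the NRF1 and the AAGGTCA letters, Sdha held 2 to the NRF1 letters, and Atp5b held 0. The 74 tested members found in the table held the NRF1 letters in 15 cases (20.3%), against 7.36% of all 27025 genes in it, and the GABPA letters in 14 (18.9%, against 7.83%). ATGGCGG was found in 5 members (6.76%, against 2.58%) and AAGGTCA in 5 (6.76%, against 4.70%). No match overlapped another in these 4 sequences. A gene was counted once if any of its starts held the letters. A match describes the letters and is not a binding site, and the shares are not adjusted for base composition. Members without an entry included Atp5a1, Atp5mpl, Cox4i1, Cox4i2, Cox6a2, Cox6c, Ndufa2, Ndufa4l2, Ndufaf6, Ndufb4c, Ndufb9, Ndufs1, Sdhc, Uqcrb, Uqcrc2 and Uqcrq.

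Transcript length was a property that the members shared and that ran alongside the block. Among 89 members with an annotated length the median was 875 nt, against 2990 nt for the 14473 other genes tested that had one, and 56.2% of members were under 1000 nt against 5.80% of the other genes. Across members, the Spearman correlation of length with likeness to the other members was -0.48. Complex II had the longest transcripts, with a median of 2066 nt, and complex IV the shortest, with 669.5 nt. Exceptions included Atp5md, a small subunit of ATP synthase with an annotated transcript of 2733 nt, which followed the block at r = 0.99, and Cox4i2 and Cox6a2, which are short and did not.

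**Figure D2:**
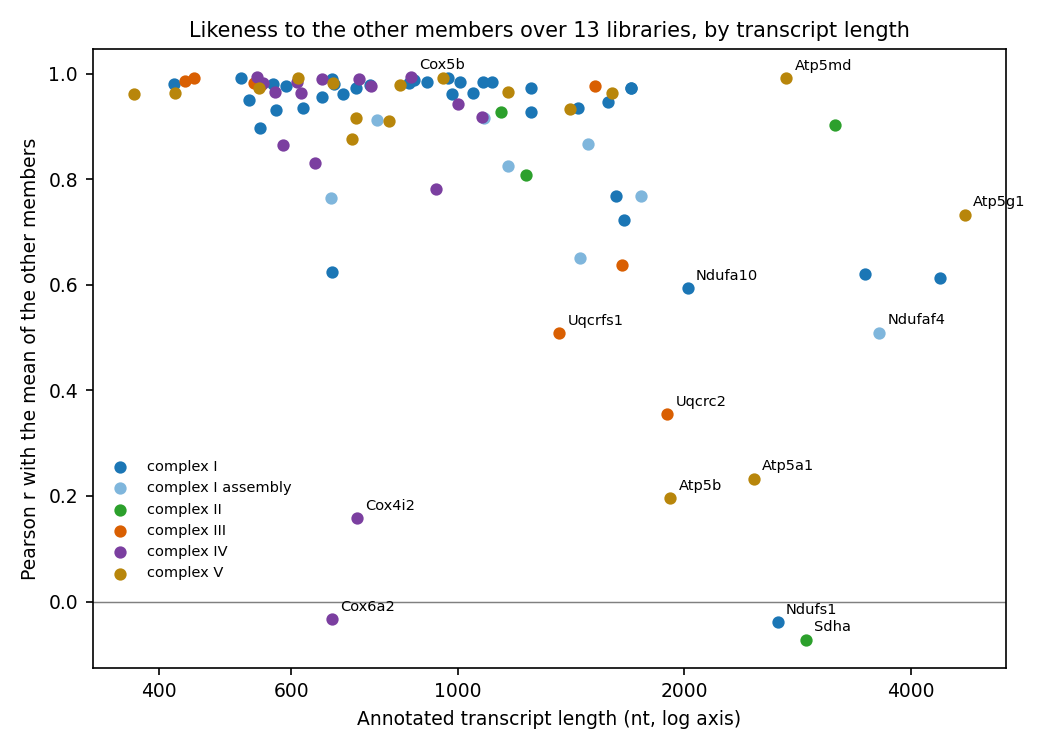
Each point is 1 of 89 members with an annotated transcript length (x axis, nt, log scale), and the y axis is its Pearson correlation over 13 libraries with the mean of the other members. Most points under 1000 nt lie near the top, with Cox4i2 and Cox6a2 lowest among them and Ndufb8, Ndufaf2 and Ndufa4l2 between 0.62 and 0.78, and Sdha and Ndufs1 lie at the bottom right.

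Other short genes differed in the same direction as the short members in the libraries that stood apart, and not in all others. In WD 2 the 50 members under 1000 nt had a median deviation of 1.43 on the log2 scale from their own means, and 839 other genes of that length 1.34. In WD 5 these values were 0.89 and 0.77, in auranofin 2 0.83 and 0.40, and in atorvastatin 1 -0.89 and -0.70. In WD 2, WD 5 and atorvastatin 1 the members thus lay close to equally short genes of any function, whereas in auranofin 2 they lay further above them. In combination 2 the signs were opposite, at 0.09 for members and -0.26 for other short genes, and in WD 1 (-0.40 and 0.02) and combination 1 (-0.25 and 0.01) the members alone were low. No RNA integrity value was used here, so a part of RNA quality in these levels, and in the group medians below, was not tested. In genes of 2000 nt or more, WD 2 had a median of 0.07 for 10 members and -0.33 for 10571 other genes.

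**Figure D3:**
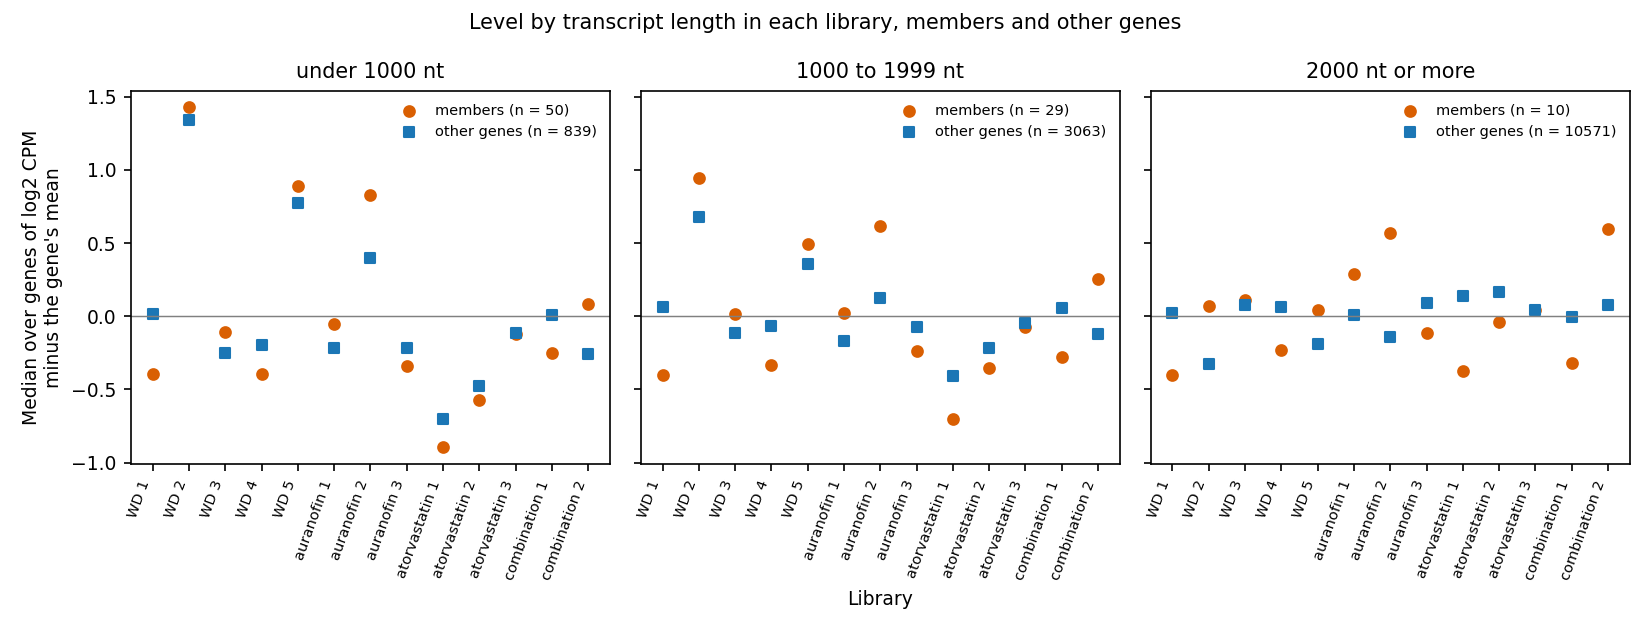
The y axis is the median over genes of log2 CPM minus the mean of the gene over 13 libraries, for members (circles) and all other genes (squares) in 3 classes of transcript length, with libraries on the x axis. Among genes under 1000 nt both symbols are high in WD 2 (1.43 and 1.34) and WD 5 and low in atorvastatin 1.

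Auranofin against WD asked what the drug changed in the diseased aorta. No member was called at an adjusted p under 0.05 in edgeR, DESeq2 or limma (0 of 91; 0% of all 18055 genes in edgeR), and the smallest adjusted p in edgeR was 0.671. At an unadjusted p under 0.05 edgeR gave 3 members lower (3.30%, against 3.79% of all genes) and 0 higher (2.71% of all genes): Cox6a2 at a log2 fold change of -3.52 (SE 1.40), Cox4i2 at -1.01 (SE 0.40) and Atp5g1 at -1.24 (SE 0.45). For Cox6a2 the high WD values were those of WD 1 and WD 4, the libraries with heart transcripts described above. Atp5g1 had 64.0, 191, 36.5, 52.0 and 124 CPM in WD and 34.8, 43.9 and 40.3 CPM with auranofin, so that WD 3 lay within the auranofin range. The median over members was -0.18, against -0.04 over all genes, with 62 members lower and 29 higher (9678 and 8376 of all 18055 genes). The sign of this median was not stable: it was 0.19 in limma with sample weights, 0.21 without WD 2 and 0.57 without both WD 2 and WD 5. At an unadjusted p under 0.05 there were 0 members without auranofin 1 (2.48% of all genes higher and 1.20% lower). Without auranofin 2 there was 1, which was lower (1.36% of all genes). Without WD 3 there were 3 higher and 4 lower (3.59% and 6.70% of all genes). Without auranofin 3 there were 4 higher and 3 lower (3.88% and 5.02%). DESeq2 gave 2 higher and 3 lower (3.45% and 4.92%), and limma 5 higher and 2 lower (4.70% and 4.77%). With the trend on transcript length removed from each library, 8 of 89 members were higher (8.99%) and 2 lower (2.25%). The shares of all genes in that fit were 4.63% higher and 4.49% lower. With the mitochondrial share as covariate 58 members were lower at that level, against 10.9% of all genes, and the median was -0.62. Long core subunits were on the higher side without passing, with Ndufs1 at 0.68 (SE 0.32; adjusted p 0.671), Sdha at 0.65 (SE 0.32; adjusted p 0.671) and Uqcrc2 at 0.60 (SE 0.31; adjusted p 0.671). Beside these 3 genes, the median log2 fold change was 1.40 over the 12 brown adipocyte markers and 0.58 over the 16 citric acid cycle genes, none of them called.

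Atorvastatin against WD had the lowest member values. Again 0 of 91 members were called (0% of all genes), with a smallest adjusted p of 0.340 in edgeR and 0 in DESeq2 and limma, while at an unadjusted p under 0.05 34 members were lower (37.4%, against 10.5% of all genes) and 0 higher (4.19% of all genes). The median over members was -0.87, and all genes had -0.01. Complex medians were -0.88 for complex I (18 of 38 lower at an unadjusted p under 0.05), -0.31 for complex II (0 of 4), -0.85 for complex III (2 of 8), -0.88 for complex IV (3 of 16) and -0.97 for complex V (8 of 17), and that of the assembly factors was -0.55 (3 of 8). The lowest p in complex I belonged to Ndufb7, an accessory subunit, at -1.30 (SE 0.44; adjusted p 0.340). Its levels were 58.0, 168, 53.3, 51.0 and 141 CPM in WD and 29.0, 32.9 and 53.1 CPM with atorvastatin, so WD 2 and WD 5 stood out and atorvastatin 3 overlapped WD. Cox7a2l, which joins complexes III and IV into supercomplexes, was at -0.94 (SE 0.38) and Uqcr11 at -1.13 (SE 0.50). Sdha was on the other side, at 0.42 (SE 0.32; adjusted p 0.472).

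Groups overlapped for nearly all members in that comparison. Ndufaf2 and Ndufaf7, both complex I assembly factors, were the 2 members with every atorvastatin library below every WD library (2.20%, against 2.87% of all genes). Ndufaf7 had 19.4, 27.6, 21.7, 19.7 and 32.2 CPM in WD and 16.0, 15.6 and 18.8 CPM with atorvastatin. The count of 34 at an unadjusted p under 0.05 was 6 when WD 2 was left out (4.06% of all genes lower) and 10 for WD 5 (5.18%). It was 2 for atorvastatin 1 (1.101%), 3 for atorvastatin 2 (1.88%), 60 for WD 1 (12.03%) and 58 for WD 4 (14.5%). Without both WD 2 and WD 5 the median over members was -0.17, with 1 member lower at an unadjusted p under 0.05 (0.811% of all genes). With the mitochondrial share as covariate 64 members were lower at that level, against 10.1% of all genes. With the trend on transcript length removed from each library the median over members was -0.00. In that fit 5 of 89 were lower at that level (5.62%, against 3.74% of all genes). Other genes under 1000 nt had a median of -0.91 in the comparison as first fitted, against -0.98 for members of that length, and 45.2% of those other genes had a lower value at an unadjusted p under 0.05, against 50% of those members.

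The combination against WD gave no member at either level in edgeR: 0 of 91 were called (0% of all genes; 0 in DESeq2 and limma) and 0 had an unadjusted p under 0.05, where 0.947% of all genes were higher and 0.521% lower. The median over members was -0.44, with 75 of 91 lower, against 9207 of all 18055 genes. That median was, however, 0.13 in limma with sample weights and 0.24 without both WD 2 and WD 5. The 2 libraries differed from each other, with a mean log2 CPM over members of 5.47 in combination 1 and 5.95 in combination 2. Sdha was at 0.70 (SE 0.36) and Atp5a1 at 0.47 (SE 0.28), and without combination 2 these were -0.12 and -0.10. Without WD 3, 1 member was higher and 1 lower at an unadjusted p under 0.05 (1.71% and 1.70% of all genes). Ndufaf2 was the member whose 2 combination libraries, at 6.40 and 6.80 CPM, lay below all WD libraries, which held 7.20 to 18.1 CPM (1.10%, against 1.75% of all genes).

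Auranofin and atorvastatin were also compared with each other, and here 90 of 91 members were fitted higher with auranofin. So were 9039 of all 18055 genes, all 80 cytosolic ribosome genes and 80 of 82 mitochondrial ribosome genes. Other genes under 1000 nt had a median log2 fold change of 0.43, against 0.74 for members of that length. Again 0 members were called (0% of all genes; 0 in DESeq2 and limma), and 1 had an unadjusted p under 0.05 (1.10% higher, against 2.07% of all genes, and 0 lower, against 2.33%), namely Ndufaf1, an assembly factor, at 0.50 (SE 0.21; adjusted p 0.826). The median over members was 0.62, and it became 0.03 with the log2 mitochondrial read share in the model and 0.27 with the length trend removed. The count of 1 higher at an unadjusted p under 0.05 became 17 without auranofin 3 (3.69% of all genes higher) and 9 without WD 2 (2.94%). It became 3 without atorvastatin 3 (2.21%) and 2 without WD 1 (1.98%) or auranofin 1 (2.87%). It became 0 without auranofin 2 (0.323%), atorvastatin 1 (0.539%) or atorvastatin 2 (1.05%). Without both WD 2 and WD 5 it was 48, all higher, against 6.13% of all genes, and with the compared groups alone 22 (3.27%). Every auranofin library exceeded every atorvastatin library for Ndufc2, Cox7a2l, Atp5c1 and Atp5k (4.40%, against 5.91% of all genes). Cox6b1, a subunit of complex IV, was at 1.15 (SE 0.54) and rested on auranofin 2, with 176, 406 and 116 CPM against 81.6, 99.4 and 134 CPM. This comparison and those with WD share libraries, so their values are not independent of each other.

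Over the whole layout, each drug was also taken as given or not. With auranofin given, 0 members were called (0% of all genes; 0 in DESeq2 and limma) and 4 were higher at an unadjusted p under 0.05 (4.40%, against 1.89% of all genes), with 0 lower (0.798% of all genes). These were Ndufs1 at 0.53 (SE 0.25), Ndufaf1 at 0.33 (SE 0.14), Uqcrc2 at 0.50 (SE 0.23) and Ndufaf4, an assembly factor, at 0.33 (SE 0.15). The edgeR adjusted p was 0.998 for each. Their number was 9 without auranofin 3 (2.56% of all genes higher) and 1 without WD 5 (1.71%), auranofin 1 (1.52%) or atorvastatin 3 (1.65%). It was 0 without WD 1 (1.01%), WD 4 (1.93%), auranofin 2 (0.523%) or atorvastatin 1 (1.23%). Without both WD 2 and WD 5 it was 44, all higher, against 3.35% of all genes. With the length trend removed 10 of 89 were higher (11.2%, against 2.91% of all genes) and 0 lower (1.47% of all genes). As first fitted, the median over members was 0.08. With atorvastatin given, 0 were called (0% of all genes; 0 in DESeq2 and limma), 17 were lower at an unadjusted p under 0.05 (18.7%, against 4.24% of all genes), 0 were higher (2.84% of all genes) and the median was -0.62. The 17 became 0 without auranofin 2 (1.496% of all genes lower), atorvastatin 1 (1.06%) or atorvastatin 2 (1.27%). The number was 1 without WD 2 (2.57%) or WD 5 (2.15%) and 10 without atorvastatin 3 (3.12%). It lay between 28 and 49 without WD 1, WD 3, WD 4, auranofin 1 or auranofin 3 (5.31% to 7.24%). The median was -0.11 in limma and -0.04 with the length trend removed.

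**Figure D4:**
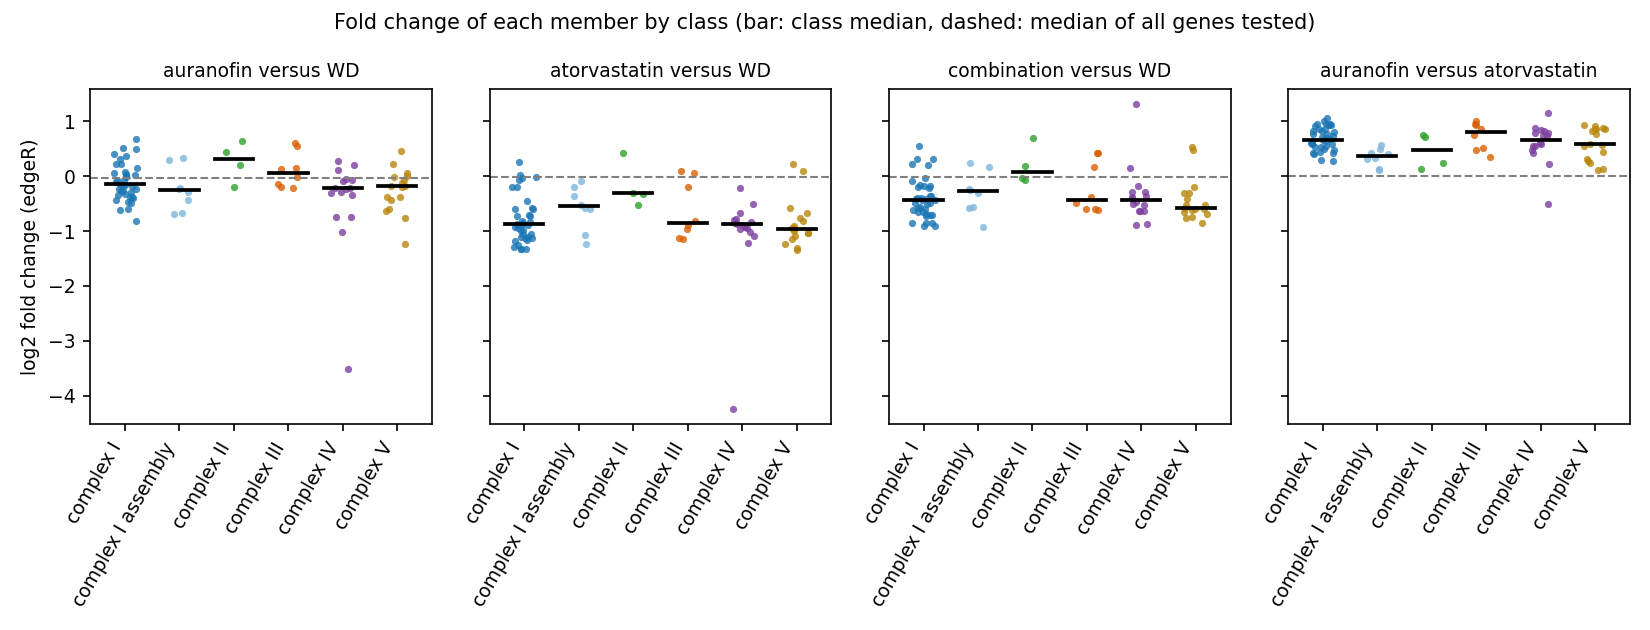
Each point is the edgeR log2 fold change of 1 member (y axis) in 1 of 4 comparisons (panels), by class (x axis), with a bar at the class median and a dashed line at the median of all genes tested. For atorvastatin against WD the medians of complexes I, III, IV and V lie between -0.97 and -0.85 and that of complex II at -0.31, and the low outlying point of complex IV in the first 2 panels is Cox6a2.

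Members were higher in libraries with a larger mitochondrial read share. Within groups, 56 of 91 members were called higher for each doubling of the share and 0 lower, against 1.39% of all genes called higher, 0.172% lower and 1.56% in either direction (edgeR, Benjamini-Hochberg adjusted over 18055 genes). The median slope over members was 0.93 on the log2 scale per doubling, against -0.03 for all genes, and 83 members had an unadjusted p under 0.05 in the higher direction (91.2%, against 12.2% of all genes) and 0 in the lower (7.82% of all genes). By complex, 29 of 38 tested members of complex I, 2 of 4 of complex II, 5 of 8 of complex III, 11 of 16 of complex IV and 9 of 17 of complex V were called, and 0 of the 8 assembly factors. Median slopes were 0.96, 0.66, 1.09, 1.00 and 0.93 in complexes I to V and 0.48 in the assembly factors.

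The strongest call was Ndufb9 (ENSMUSG00000022354), an accessory subunit of complex I, with a slope of 1.29 (SE 0.13; adjusted p 0.00273). It had 21.8, 77.5, 35.9, 25.5 and 75.7 CPM in WD 1 to WD 5, 44.1, 77.5 and 24.6 CPM in the auranofin libraries, 17.3, 21.9 and 38.0 CPM in the atorvastatin libraries and 26.3 and 47.5 CPM in the combination. Within each group its order was that of the mitochondrial shares, which run from WD 1 up through WD 4, WD 3 and WD 5 to WD 2. Ndufs4, an accessory subunit needed for a stable complex I, had a slope of 1.00 (SE 0.13; adjusted p 0.00399). In complex III Uqcrq had 1.19 (SE 0.15; adjusted p 0.00447), in complex IV Ndufa4 1.13 (SE 0.16; adjusted p 0.00697), in complex V Atp5o, of the stalk, 1.13 (SE 0.16; adjusted p 0.00697) and in complex II Sdhb, the iron-sulphur subunit, 0.90 (SE 0.14; adjusted p 0.00950).

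The 7 members apart from the block were not called here, and neither were other members, among them all 8 assembly factors. The 7 were chosen for a low correlation with the other members, whose mean followed the share (r = 0.80 over all members). Their weak slopes are therefore not independent of that choice. Slopes were 0.36 (SE 0.25; adjusted p 0.409) for Sdha, 0.34 (SE 0.26; adjusted p 0.445) for Ndufs1, 0.54 (SE 0.20; adjusted p 0.186) for Uqcrc2, 0.47 (SE 0.23; adjusted p 0.266) for Atp5b and 0.33 (SE 0.17; adjusted p 0.295) for Atp5a1. Cox4i2 had -0.17 (SE 0.30; adjusted p 0.752) and Cox6a2 -1.52 (SE 1.10; adjusted p 0.421). In complex II, Sdhc, a membrane anchor subunit that moved with the block (r = 0.90), was not called either, with a slope of 0.49 (SE 0.13; adjusted p 0.0902) and an unadjusted p of 0.00235; whether its slope differed from those of the called Sdhb and Sdhd was not tested.

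**Figure D5:**
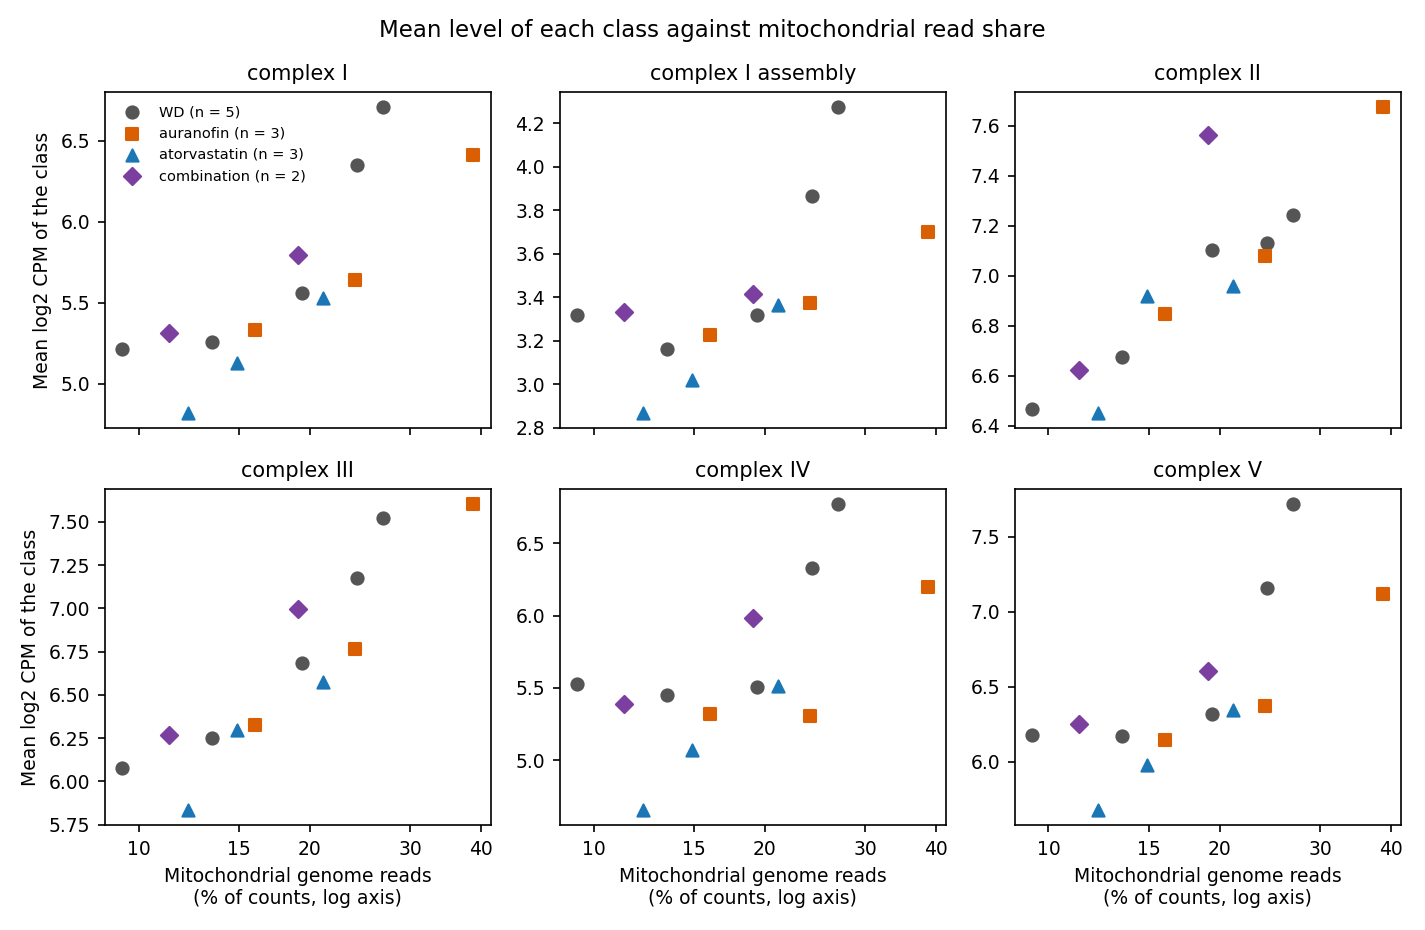
The y axis is the mean log2 CPM of the tested members of each class and the x axis the mitochondrial genome share of counts (percent, log scale), with 1 point per library and a symbol per group. Levels are higher towards the right in every panel, and auranofin 2, at 38.8%, lies below WD 2, at 26.9%, in complexes I, IV and V and among the assembly factors.

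As a description over 13 libraries, the mean log2 CPM of all 91 members and the log2 mitochondrial share had a Pearson correlation of 0.80 and a Spearman correlation of 0.86. Pearson's r was 0.81 without WD 1 and auranofin 2, the libraries farthest from the median share, and 0.91 for deviations from group means. By complex it was 0.83, 0.87, 0.91, 0.65 and 0.74 for I to V. The share and the CPM values come from the same libraries, depth and scaling. The correlation of the member mean with the median of non-member genes under 1000 nt was 0.90 and with the brown adipocyte markers 0.07. With the length trend removed these became 0.18 and 0.83, and the correlation with the mitochondrial share was 0.80, or 0.63 without WD 1 and auranofin 2. By complex the correlation with the share then was 0.88, 0.73, 0.70, 0.22 and 0.88 for I to V, so that complex IV had the lowest value. Without WD 1 and auranofin 2 these values were 0.74, 0.46, 0.39, 0.10 and 0.81. Over all 13 libraries the correlation with the brown adipocyte markers then was 0.81, 0.91, 0.96, 0.67 and 0.53 for I to V. The complex IV mean, which included Cox6a2, then had a correlation of 0.65 with the heart and striated muscle markers. For complexes I, II, III and V that value lay between -0.05 and 0.01. The part of Cox6a2 in the low value of complex IV was not tested. The mean of the mitochondrial ribosome genes had a correlation of 0.97 with that of the members as first scaled, and 0.36 with the length trend removed; the cytosolic ribosome had 0.88 and 0.13. The 6 red cell markers, haemoglobin genes among them, summed to 1089 to 11342 CPM in WD, 2496 to 9546 CPM with auranofin, 1393 to 5036 CPM with atorvastatin, and 2581 and 5087 CPM with the combination, and none was at 0. Their mean had a correlation of 0.69 with that of the members, and the heart and striated muscle markers one of -0.06. Their part in the slope was not tested.

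The number called depended on a few libraries, and the share of all genes called moved with it. Leaving out auranofin 2 left 8 members (0.211% of all genes), and leaving out auranofin 3 left 18 (0.378%). The number was 27 (0.512%) without WD 1, 33 (0.583%) without atorvastatin 3 and 34 (0.612%) without atorvastatin 1. The highest number with a library left out, at 68 (3.51%), was that without WD 3. Without WD 2, WD 5 and auranofin 2 together it was 0 (0.220%) and the median slope 0.54. With the brown adipocyte score as covariate 80 members were called, among 36.0% of all genes, and DESeq2 called 72 members and 6.24% of all genes. With the length trend removed 13 of 89 members were called (14.6%, against 0.453% of all genes) and the median slope was 0.37. In the fit without that step, members under 1000 nt had a median slope of 1.02 with 72.0% called, and other genes of that length 0.62 with 6.79% called. From 1000 nt to under 2000 nt, members had 0.71 with 51.7% called and other genes 0.28 with 2.15% called. Members of 2000 nt or more had 0.43 against -0.16 for other genes.

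Other gene groups of the mitochondrion were read beside the members for the same slope. All 13 protein genes of the mitochondrial genome, which make the share itself, had a median slope of 1.53, with 12 called. The 82 tested genes of the mitochondrial ribosome had 0.57 with 10 called, and the 12 genes of cytochrome c and coenzyme Q, the mobile electron carriers, 0.37 with 4 called. Of 16 citric acid cycle genes 3 were called (median 0.54), of 13 complex IV assembly and copper genes 2 (0.29), of 13 assembly genes of complexes II, III and V 0 (0.44), and of 12 regulators of mitochondrial biogenesis 0 (0.07). The 80 genes of the cytosolic ribosome, which are also short, had a median of 0.90, close to that of the members, and 0 called, though 74 had an unadjusted p under 0.05. In atorvastatin against WD the cytosolic ribosome had a median of -1.38 and the mitochondrial ribosome -0.74, with 0 called in each. At an unadjusted p under 0.05 in edgeR, 75 of 80 and 49 of 82 of these genes were lower. The same level held 34 of 91 members and 10.5% of all genes.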

How the data were processed

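The authors deposited a table of raw counts per gene for all 13 libraries. Per the labels' protocols poly-A RNA was made into libraries that keep no strand and read on a DNBseq platform. Per the submitters' processing notes, STAR 2.6.1d, the build GRCm39 and featureCounts of Subread 1.6.3 were used; the annotation release and the handling of reads with several matches are not given in the sources used here. No strand was kept, so reads of overlapping genes cannot be told apart. Genes with low counts were removed with filterByExpr of edgeR, which left 18055 genes.

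Scaling used TMM factors. The quasi-likelihood test of edgeR 4.0.16 (R 4.3.3) was fitted to all 13 libraries, two-sided, with 1 mean per group, an additive model of the 2 drugs, or group plus the slope on log2 mitochondrial share. Benjamini-Hochberg adjustment ran over all 18055 genes, with a threshold of 0.05; SE is the log2 value divided by the square root of F. Level scores are means of log2 CPM with a prior count of 2. Members and gene lists were chosen with earlier results of these data known. Named members were, in each comparison, the 2 of smallest p per class, a fixed panel, and the 5 most and 8 least like the other members; Cox5b, Ndufb4, Uqcr11 and the members whose groups did not overlap were in part named after their values were seen. For 1 member of the panel, counted in all totals, values are not reported here.

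Transcript lengths are those of the longest principal protein-coding transcript of GENCODE M21, matched by Ensembl identifier. To remove the length trend, a lowess curve (span 0.3) of each library's deviations on log length was subtracted. Alternatives were DESeq2 1.42.0 and its size factors, limma 3.58.1 (voom with sample quality weights), mitochondrial genes left out before scaling, other filters, an adjusted p under 0.1, only the compared groups, the replicate number as a block, a brown adipocyte score or the mitochondrial share as covariate, no group term, and each library left out in turn. The length trend and the joint removal of WD 2, WD 5 and auranofin 2 were added after the data were seen. The test was checked on simulated data in which genes varied independently of each other. That check does not cover genes that move together from library to library. Figures were drawn with matplotlib 3.10.9.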

Additional observations from a re-analysis of the deposited data

How the results depend on the processing

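Of the 7 comparisons, the 6 between groups had 0 members called under each alternative run; the fits on the mitochondrial share moved more. With the replicate number as a block, 0 members (and 0 genes) were called for the share, and the median slope was 0.75. Same-numbered samples deviated together in some pairs only (correlations from -0.31 to 0.43, with 5 of 15 pairs over 0.1). The highest values were 0.43 for WD 2 with auranofin 2 and 0.37 for auranofin 1 with atorvastatin 1. The labels do not say that a number marks a shared litter or day, so the block pairs samples by number alone. The block changed no other number called. The 34 members lower at an unadjusted p under 0.05 in atorvastatin against WD became 18 (4.64% of all genes lower). The number called for the share, 56 with 1.56% of all genes, was 13 (0.453%) with the length trend removed, 36 (1.11%) without both WD 2 and WD 5, 0 (0.220%) without WD 2, WD 5 and auranofin 2, 8 (0.211%) to 68 (3.51%) when each library was left out, 72 (6.24%) in DESeq2 and 80 (36.0%) with the brown adipocyte score as covariate. The median slope was 0.37 with the length trend removed.

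Numbers of members at an unadjusted p under 0.05 ranged more widely over the alternatives: 0 to 58 (3 as reported) for auranofin against WD and 1 to 64 (34) for atorvastatin against WD, both highest with the mitochondrial share as covariate and then all lower (10.9% and 10.1% of all genes lower). They were 0 to 48 (1) for auranofin against atorvastatin and 0 to 44 (4) for auranofin given or not, both highest without WD 2 and WD 5 and then all higher (6.13% and 3.35% of all genes higher). They were 0 to 8 (0) for the combination against WD, highest without combination 1 and then all higher (3.34%), and 0 to 49 (17) for atorvastatin given or not, highest without auranofin 3 and then all lower (6.60%).

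Medians over members moved by more than the spread between replicates as follows. Auranofin against WD was 0.57 without both WD 2 and WD 5. Atorvastatin against WD was -0.30 in limma, -0.0011 with the length trend removed, -0.17 without both WD 2 and WD 5 and -0.17 without those and auranofin 2. The combination against WD was 0.13, 0.16, 0.24 and 0.25 in the same order. Auranofin against atorvastatin was 0.033 with the mitochondrial share as covariate. Atorvastatin given or not was -0.11 in limma, -0.041 with the length trend removed and -0.051 without the 3 libraries. The causes were not tested.

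Some members changed sign. In the combination Cox5b, at -0.42, was 0.18 in limma, 0.18 with the length trend removed, 0.27 without both WD libraries and 0.27 without the 3 libraries, and Cox6a2, at 1.31, was -0.81 in limma. With each library left out, Sdha ran from -0.12 to 1.22, Atp5a1 from -0.10 to 0.88 and Cox6a2 from -2.78 to 2.27. In atorvastatin against WD with the length trend removed, Uqcr11 was 0.000325 and Cox5b 0.033. For the mitochondrial share with the brown adipocyte score as covariate, Sdha was -0.18, Ndufs1 -0.23 and Cox4i2 0.32. Cox4i2 ran from -0.30 to 0.13 with each library left out, and Cox6a2 was 0.12 without both WD libraries and 0.20 without the 3 libraries. Depth limits Cox6a2 most, which had as few as 2 counts in a library; the next lowest was Cox4i2 with 23.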
